A study of Mus musculus with 9 samples.

Results

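The level of 9 genes that make, carry or sense retinoic acid was compared between Yap-positive and Yap-negative pancreatic ductal adenocarcinoma (PDAC) cells of the mouse. They are the retinoic acid binding protein genes Crabp1 and Crabp2, the retinaldehyde dehydrogenase genes Aldh1a1, Aldh1a2 and Aldh1a3, the retinoic acid receptor genes Rara, Rarb and Rarg, and the retinoid X receptor gene Rxra. The genes were chosen by name, for their function, with earlier results of these data known. All 9 were found among the 47643 genes of the count files. All 9 also had at least 100 counts summed over the 9 libraries, the filter that left 14105 genes for testing.

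The libraries were made from tumor cells sorted by color from the pancreas. The 6 KPF libraries hold GFP+Yap+ cells of mice whose alleles include Trp53frt/+, Pdx-Flp and R26FSF-CreER/Dual, and the 3 KPYYF libraries hold Tm+Yap- cells of mice that carried Yapflox/flox beside these same alleles. Flp under the Pdx promoter switched on the reporter in pancreatic cells and removed a copy of Trp53 there, so that both groups share these lesions. Tamoxifen (TAM) in the diet, given once tumors could be felt, activated CreER in the cells that Flp had marked, which exchanges GFP for tdTomato (Tm) and, in KPYYF cells only, deletes Yap. Per the study's text, tumors of both genotypes came from TAM-treated mice, so the KPF cells are those that had not exchanged the color. The same text places the Tm+Yap- cells in nodules that had grown back during TAM. Yap loss, Cre recombination, the color of the sort and growth in a relapsed nodule therefore cannot be told apart in this comparison. Libraries are named by mouse number. KPF libraries 4504h and 4504s carry the same number, and neither age nor the time on TAM is given for a library.

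Retinol is oxidised to retinaldehyde by retinol dehydrogenases such as Rdh10, and the Aldh1a enzymes turn retinaldehyde into retinoic acid in a step that is not reversed. In the cell, retinoic acid is carried by Crabp1 and Crabp2 and is broken down by the Cyp26 enzymes. It binds receptors of the Rar family, which pair with retinoid X receptors on response elements in DNA and exchange corepressors for coactivators when they hold the ligand. Retinoic acid from the mesoderm patterns the foregut and the early pancreas in the embryo, and retinoids are known to promote differentiation in many epithelia.

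Each library had 8116539 to 9635514 reads on genes, and 1 count corresponded to 0.0973 to 0.146 CPM (counts scaled to library size with TMM factors). Yap1, the deleted gene, ran from 41.8 to 151 CPM in KPF libraries and from 0.712 to 7.12 CPM in KPYYF libraries, without overlap (log2 fold change -4.79, SE 0.72, adjusted p = 0.0159 by edgeR's quasi-likelihood test). The labelled cell type was checked with 10 markers of ductal tumor cells. All 10 had counts in every library and a negative log2 fold change, and 3 of them, the keratin gene Krt18, the E-cadherin gene Cdh1 and the mucin gene Muc1, passed an adjusted p under 0.05. Their summed level was 3542 to 10650 CPM in KPF and 652 to 1956 CPM in KPYYF libraries. Libraries 4504s and 4449 held the most acinar marker counts (19921 and 5907 CPM, where the group medians were 393 CPM in KPF and 85.2 CPM in KPYYF), and 4601 the most immune marker counts (6832 CPM, with group medians of 545 and 443 CPM). KPF libraries 4269, 4515 and 4601 had 71 to 159 Xist counts and the other 6 libraries 3452 to 16108. Those 6 are KPF libraries 4435, 4504h and 4504s and all 3 KPYYF libraries. Low Xist was thus found in KPF only, and Xist level and group cannot be fully told apart.

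Of the 9 genes, 5 moved past an unadjusted p under 0.05 with a more than 2-fold change, the rule of the study's methods. Both binding protein genes were higher and all 3 dehydrogenase genes were lower in KPYYF cells. Over all genes tested, 13.4% passed this rule in either direction, 4.20% as higher and 9.20% as lower. The study applied the rule to DESeq2 results, whereas these counts use edgeR's test. With DESeq2 the same 5 genes passed, beside 636 of all genes as higher and 1698 as lower. With Benjamini-Hochberg adjustment over the 14105 genes, only Crabp1 passed an adjusted p under 0.05 in edgeR's test, beside 1.10% of all genes (0.305% as higher). None of the 3 dehydrogenase genes did (0.794% of all genes passed as lower), but all 3 had an unadjusted p under 0.05. With the DESeq2 Wald test, Crabp1, Crabp2 and the 3 dehydrogenase genes all had an adjusted p under 0.05. By that test 269 of the 14105 genes passed as higher and 928 as lower. With limma-voom none of the 9 genes passed, where 43 of all genes did as higher and 44 as lower. None of the 4 receptor genes passed an unadjusted p of 0.05 in the main test or in any of the 19 alternatives. The median log2 fold change was 0.13 over the 9 genes and -0.07 over all genes tested.

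**Figure D1:**
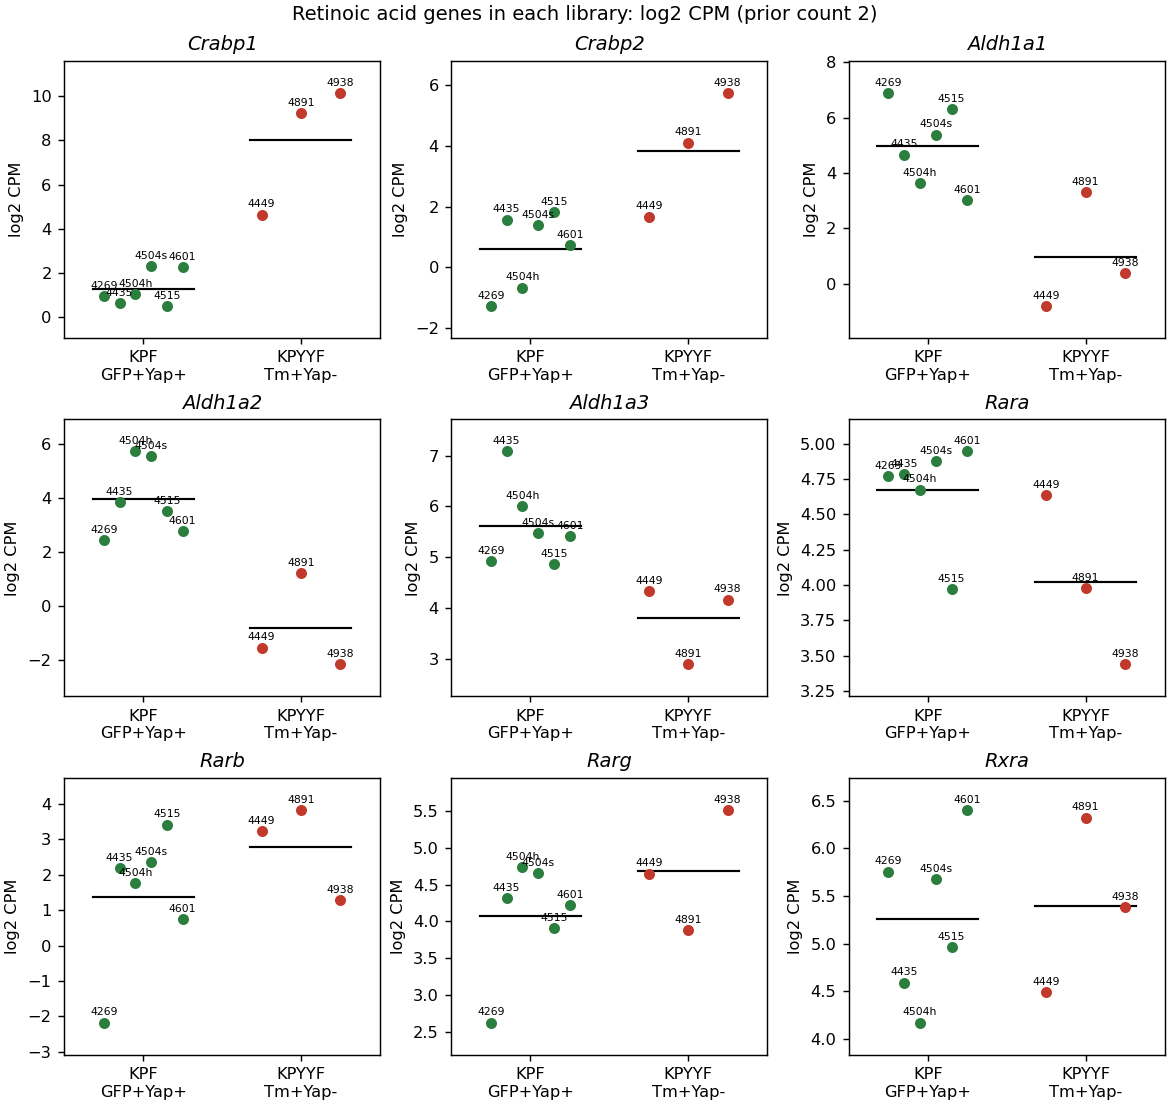
Log2 CPM (prior count 2) of the 9 genes in each library, with KPF GFP+Yap+ libraries in green, KPYYF Tm+Yap- libraries in red, the group mean as a line and the library name at each point. Crabp1 lies higher in all 3 KPYYF libraries (24.8 to 1134 CPM) than in any KPF library (at most 4.78 CPM), Aldh1a2 and Aldh1a3 lie lower in all 3, and the receptor genes overlap.

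For 7 of the 9 genes, RefSeq (GRCm38.p6) gave the sequence before 13 transcription starts; Crabp2 and Aldh1a3 were not looked at. The 250 bases before each start were searched on both strands for the direct repeat of the retinoic acid response element with 5 bases between its half-sites, for the half-site AGGTCA, for the TEAD motif GGAATG and for the AP-1 motif TGACTCA. TEAD factors are the DNA-binding partners of Yap. Sequences are shown for Crabp1, which had the largest rise, for Aldh1a1, the gene of the falling group with matches, and for Rarb, whose element is a known target of its own receptor. Capitals mark the matches.
Crabp1: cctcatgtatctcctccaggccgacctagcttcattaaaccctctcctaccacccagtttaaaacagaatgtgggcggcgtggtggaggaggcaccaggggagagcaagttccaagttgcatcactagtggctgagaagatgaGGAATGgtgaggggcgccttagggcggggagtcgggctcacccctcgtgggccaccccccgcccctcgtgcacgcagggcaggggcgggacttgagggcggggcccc
Aldh1a1: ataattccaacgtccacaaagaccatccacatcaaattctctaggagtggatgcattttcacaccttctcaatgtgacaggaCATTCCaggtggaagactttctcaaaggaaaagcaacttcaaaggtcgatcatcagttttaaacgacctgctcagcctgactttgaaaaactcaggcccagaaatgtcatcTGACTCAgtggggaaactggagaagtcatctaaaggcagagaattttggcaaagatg
Rarb: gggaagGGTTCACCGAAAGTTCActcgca

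The Crabp1 window is chr9:54764498-54764747 on the plus strand, and GGAATG starts 107 bases before the transcription start. The Aldh1a1 window shown is the first of 2, chr19:20492333-20492582 on the plus strand, with GGAATG on the other strand (printed as CATTCC) and TGACTCA on the strand shown. Neither of these windows touches an annotated exon in GENCODE M21. The other Aldh1a1 window, chr19:20601718-20601967, overlaps an exon and held no match. The Rarb stretch is chr14:16575507-16575535 on the minus strand, and the response element starts 53 bases before the RefSeq start. The 250 bases before that start overlap an annotated exon, and whether the element itself does was not looked at. The element was found in 29 of 32851 windows of all genes (0.0883%), and Rarb was the only one of the 7 genes to hold it. GGAATG was present in 12.6% of all windows and before Crabp1, Aldh1a1 and Rarb. TGACTCA was present in 4.46% of all windows and before Aldh1a1 only among the 7, and AGGTCA in 14.0% of all windows and before Rarg and Rxra. The percents are per window, whereas several of the 7 genes had more than 1 window. These matches are letters in a window and show no binding.

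Crabp1 (ENSMUSG00000032291, chr9:54764748-54773110, plus strand) encodes a cytosolic carrier that holds retinoic acid and is linked to its breakdown. In KPF libraries it had 1.75 CPM in 4269, 1.33 in 4435, 1.84 in 4504h, 4.78 in 4504s, 1.22 in 4515 and 4.66 in 4601, which is 11 to 42 counts per library. In KPYYF libraries it had 24.8 CPM in 4449, 607 in 4891 and 1134 in 4938, which is 209, 5553 and 10343 counts. The lowest KPYYF library thus lay above the highest KPF library, and 4449 stood far below the other two. The mean was 2.60 ± 1.66 CPM (SD, n = 6) in KPF and 589 ± 555 CPM (SD, n = 3) in KPYYF cells. The log2 fold change was 7.83 (SE 0.98, 95% interval 5.64 to 10.02), or 228-fold, with an adjusted p of 0.0141 in edgeR's quasi-likelihood test.

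The call for Crabp1 held in all 9 fits that left out 1 library, with an adjusted p of at most 0.0414 and a log2 fold change from 6.93 (without 4938) to 8.40 (without 4449). It also held without both libraries of mouse 4504 (8.05, adjusted p = 0.0418) and without 4504s, 4601 and 4449, the libraries with the most acinar or immune marker counts (9.16, adjusted p = 6.83e-06). It was lost with limma-voom (7.43, adjusted p = 0.133) and among the 6 libraries with at least 1000 Xist counts (7.82, adjusted p = 0.136). Crabp1 is also expressed in mesenchymal cells. Of 10 fibroblast markers, Pdgfra, Dpt and Thy1 passed the rule of the methods as higher and none as lower, beside 4.20% and 9.20% of all genes. The log2 fold change was positive for 6 of the 10 and negative for 4, Col1a1 (-1.46), Col1a2 (-1.71), Fap (-1.62) and Pdpn (-0.55). The summed level of the 10 overlapped between groups (421 to 5610 CPM in KPF, 1203 to 3434 CPM in KPYYF). Every fibroblast marker but Fap had counts in all libraries. Of 7 tested markers of pericytes and stellate cells, Cspg4 and Notch3 passed the rule as higher and Rgs5 and Acta2 as lower (log2 fold changes of 4.08, 2.09, -2.52 and -2.65). Of these 7, 2 had a positive and 5 a negative log2 fold change. Cspg4, which encodes the proteoglycan NG2, ran from 0.583 to 5.83 CPM in KPF and from 6.45 to 103 CPM in KPYYF libraries without overlap (adjusted p = 0.0351 by edgeR). Rgs5 lay the other way without overlap, with 19.9 to 119 CPM in KPF and 3.09 to 11.5 CPM in KPYYF libraries (adjusted p = 0.113 by edgeR). The summed level of this list of 8 overlapped, with 31.5 to 282 CPM in KPF and 46.0 to 219 CPM in KPYYF libraries. The part of either kind of cell in the Crabp1 level was not tested, and in bulk RNA more cells of a type and more RNA per cell cannot be told apart.

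Crabp2 (ENSMUSG00000004885, chr3:87948666-87953376, plus strand) encodes the carrier known to bring retinoic acid to its receptors in the nucleus. It had 0.195 CPM in 4269, 2.77 in 4435, 0.409 in 4504h, 2.39 in 4504s, 3.32 in 4515 and 1.46 in 4601, or 2 to 30 counts per library. In KPYYF libraries it had 2.97 CPM in 4449, 17.1 in 4891 and 53.5 in 4938. Libraries 4891 and 4938 lay above all KPF libraries, and 4449 lay below 4515. This gave a log2 fold change of 3.79 (SE 0.95, 95% interval 1.75 to 5.84), with an unadjusted p of 0.00148 and an adjusted p of 0.0777 by edgeR. The adjusted p was 0.00289 with DESeq2, 0.0203 without the filter on low counts and 0.0320 without 4449. Without 4938 the log2 fold change was 2.50 (unadjusted p = 0.0674). The order of the 3 KPYYF libraries was the same for Crabp1 and Crabp2.

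The 3 retinaldehyde dehydrogenase genes together took 389 to 1703 counts in each KPF library and 172 to 174 counts in each KPYYF library. Aldh1a2 and Aldh1a3 were lower in every KPYYF library than in any KPF library, where 5.18% of all genes tested showed such a gap downward and 3.92% upward.

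Aldh1a2 (ENSMUSG00000013584, chr9:71215789-71296243, plus strand) encodes the main enzyme of retinoic acid synthesis in the embryonic mesoderm and is known from mesothelium. It had 5.16 CPM in 4269, 13.9 in 4435, 52.1 in 4504h, 46.0 in 4504s, 11.1 in 4515 and 6.56 in 4601. In KPYYF libraries it had 1 count in 4449 (0.119 CPM), 19 counts in 4891 (2.08 CPM) and none in 4938, where a count of 0 allows up to 0.329 CPM. Both libraries of mouse 4504 stood above the other KPF libraries, and all 3 KPYYF libraries lay below the lowest of them. On the log2 scale the fold change was -4.91 (SE 1.37, 95% interval -7.89 to -1.93), with an unadjusted p of 0.00371 and an adjusted p of 0.112. It was -8.30 without 4891 and -3.62 without both libraries of mouse 4504 (unadjusted p = 0.0424).

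Mesothelial markers were lower in KPYYF libraries, as Aldh1a2 was. Of 8 markers 7 were tested, all 7 had a negative log2 fold change, 5 passed the rule of the methods as lower, and the uroplakin gene Upk1b passed an adjusted p under 0.05 (0.0277). Gpm6a and Muc16 had no count in any KPYYF library. The summed level of the 8 markers was 354 to 2753 CPM in KPF and 40.8 to 209 CPM in KPYYF libraries, mostly from Msln, which ductal tumor cells also express. Within KPF this sum did not follow Aldh1a2. It was highest in 4515 (2753 CPM), with 587 CPM in 4504h and 652 CPM in 4504s. Without Msln, a choice made after the values were seen, the sum was 11.8 to 164 CPM in KPF and 0.219 to 7.22 CPM in KPYYF libraries and was highest in 4504s and 4504h. The summed fibroblast markers were also highest in 4504s (5610 CPM) and 4504h (4018 CPM). The summed pericyte and stellate markers were highest in 4504s (282 CPM), with 146 CPM in 4504h and 208 CPM in 4435. The part of mesothelial cells in the fall of Aldh1a2 was not tested.

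**Figure D2:**
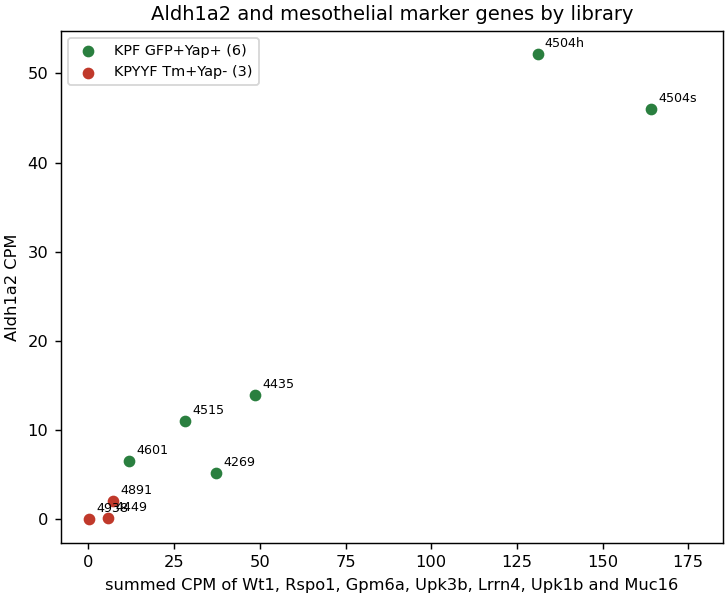
Aldh1a2 CPM (vertical) against the summed CPM of 7 mesothelial marker genes, Msln left out (horizontal), 1 point per library with its name, KPF in green and KPYYF in red. Libraries 4504h and 4504s, from the same mouse number, stand apart at 52.1 and 46.0 CPM of Aldh1a2, and the 3 KPYYF libraries lie at or below 2.08 CPM.

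Aldh1a3 (ENSMUSG00000015134, chr7:66390890-66427517, minus strand) encodes the enzyme of this family that is best known from carcinoma cells of high dehydrogenase activity. It had 30.2 CPM in 4269, 135 in 4435, 64.0 in 4504h, 44.1 in 4504s, 28.8 in 4515 and 42.3 in 4601. In KPYYF libraries it had 19.9 CPM in 4449, 7.22 in 4891 and 17.8 in 4938. Library 4435 stood above the rest of KPF, and the groups did not overlap. KPYYF cells differed by a log2 fold change of -1.94 (SE 0.57, 95% interval -3.18 to -0.70), or 3.84-fold lower, with an unadjusted p of 0.00486 and an adjusted p of 0.120. Its unadjusted p stayed under 0.05 in all 19 alternatives (at most 0.0257), with a log2 fold change of -1.48 without 4435.

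Aldh1a1 (ENSMUSG00000053279, chr19:20492715-20643465, plus strand) encodes the enzyme whose activity is often used to mark stem-like cells. It had 118 CPM in 4269, 25.1 in 4435, 12.3 in 4504h, 41.7 in 4504s, 78.5 in 4515 and 7.87 in 4601. In KPYYF libraries it had 0.356 CPM in 4449, 9.73 in 4891 and 1.10 in 4938, so that 4891 lay above 4601 and the groups overlapped. Its log2 fold change was -3.66 (SE 1.22, 95% interval -6.37 to -0.95), with an unadjusted p of 0.0129 and an adjusted p of 0.173. It was -5.99 without 4891, and the unadjusted p was 0.0580 with limma-voom. Reads could be split between Aldh1a1 and its close paralog Aldh1a7, which had 522 counts over all libraries and a log2 fold change of -1.47 (unadjusted p = 0.314), so the value of Aldh1a1 is uncertain to that extent.

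The receptor genes showed no change past the test, and each of the 4 had KPYYF libraries within the range of the KPF libraries. Rara (ENSMUSG00000037992, chr11:98927818-98974942, plus strand), the most widely expressed Rar gene, had 27.1 CPM in 4269, 27.4 in 4435, 25.3 in 4504h, 29.2 in 4504s, 15.5 in 4515 and 30.6 in 4601, against 24.7 in 4449, 15.5 in 4891 and 10.6 in 4938. All KPF libraries but 4515 lay within 25.3 to 30.6 CPM, above each KPYYF library. This was a log2 fold change of -0.61 (95% interval -1.53 to 0.31, unadjusted p = 0.178).

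Rarb (ENSMUSG00000017491, chr14:16430839-16819156, minus strand), the receptor gene that retinoic acid itself induces through the element shown above, had no count in 4269, 4.30 CPM in 4435, 3.17 in 4504h, 4.90 in 4504s, 10.4 in 4515 and 1.46 in 4601. KPYYF libraries had 9.14 CPM in 4449, 14.0 in 4891 and 2.19 in 4938. Rarb had a log2 fold change of 1.06 (95% interval -1.49 to 3.61, unadjusted p = 0.386), the widest interval of the 4 receptor genes. Its 3′ end lies within Top2b on the other strand, which had 13502 counts in all, and whether the counting used the strand is not given in the sources used here.

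Rarg (ENSMUSG00000001288, chr15:102234938-102257517, minus strand), the receptor gene best known from skin and other squamous epithelia, had 5.93 CPM in 4269, 19.8 in 4435, 26.6 in 4504h, 24.9 in 4504s, 14.8 in 4515 and 18.5 in 4601, against 24.9 in 4449, 14.5 in 4891 and 45.7 in 4938. Library 4938 lay highest and 4269 lowest, with the others between. Rarg had a log2 fold change of 0.62 (95% interval -0.49 to 1.73, unadjusted p = 0.247).

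Rxra (ENSMUSG00000015846, chr2:27676440-27762957, plus strand) encodes the common partner of the Rar proteins. It had 53.8 CPM in 4269, 23.9 in 4435, 17.8 in 4504h, 51.0 in 4504s, 31.0 in 4515 and 84.4 in 4601, against 22.2 in 4449, 79.7 in 4891 and 41.4 in 4938. The log2 fold change of 0.13 (95% interval -0.98 to 1.24, unadjusted p = 0.803) had no stable sign, since it was -0.03 without 4504h and -0.45 without 4891.

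The share that each gene took of its own family's counts does not depend on the scaling of a library. Crabp1 took 62.3 ± 26.5% (SD, n = 6) of the Crabp1 and Crabp2 counts in KPF libraries, on only 20 to 63 counts each, and 94.0 ± 4.17% (SD, n = 3) in KPYYF libraries. In 4435 and 4515 Crabp2 took more than Crabp1 (Crabp1 shares of 32.5% and 26.8%, with Wilson 95% intervals of 20.1 to 48.0% and 15.7 to 41.9%), while in all 3 KPYYF libraries Crabp1 took at least 89.3%. Intervals of single shares cover counting error only. The difference of 31.7 percentage points had a two-sided p of 0.0952 in the exact permutation test over all 84 splits, and 0.292 adjusted over 7 shares.

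Aldh1a3 took 97.7% of the dehydrogenase counts in 4449 and 94.2% in 4938, but 37.9% in 4891, where Aldh1a1 took 51.1%. In KPF libraries the leading gene differed, with Aldh1a1 at 77.0% in 4269 and 66.3% in 4515, and Aldh1a3 at 77.6% in 4435 and 74.6% in 4601. Aldh1a2 reached its highest shares in 4504h (40.6%) and 4504s (34.9%). The mean Aldh1a3 share was 46.6 ± 25.1% (SD, n = 6) in KPF and 76.6 ± 33.5% (SD, n = 3) in KPYYF libraries (exact permutation p = 0.167, adjusted p = 0.292).

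Among the receptors, Rara took 54.9 ± 15.3% (SD, n = 6) of the Rar counts in KPF and 31.8 ± 12.3% (SD, n = 3) in KPYYF libraries (exact permutation p = 0.0595, adjusted p = 0.292). Rarg took 36.7% on average in KPF and 51.2% in KPYYF libraries, with 78.1% in 4938, and Rarb 8.47% and 17.0%. The Rar counts summed to 340 to 539 in KPF and to 403 to 534 in KPYYF libraries. None of the 7 shares passed an adjusted p of 0.05, and the smallest p that this design allows is 0.0119.

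**Figure D3:**
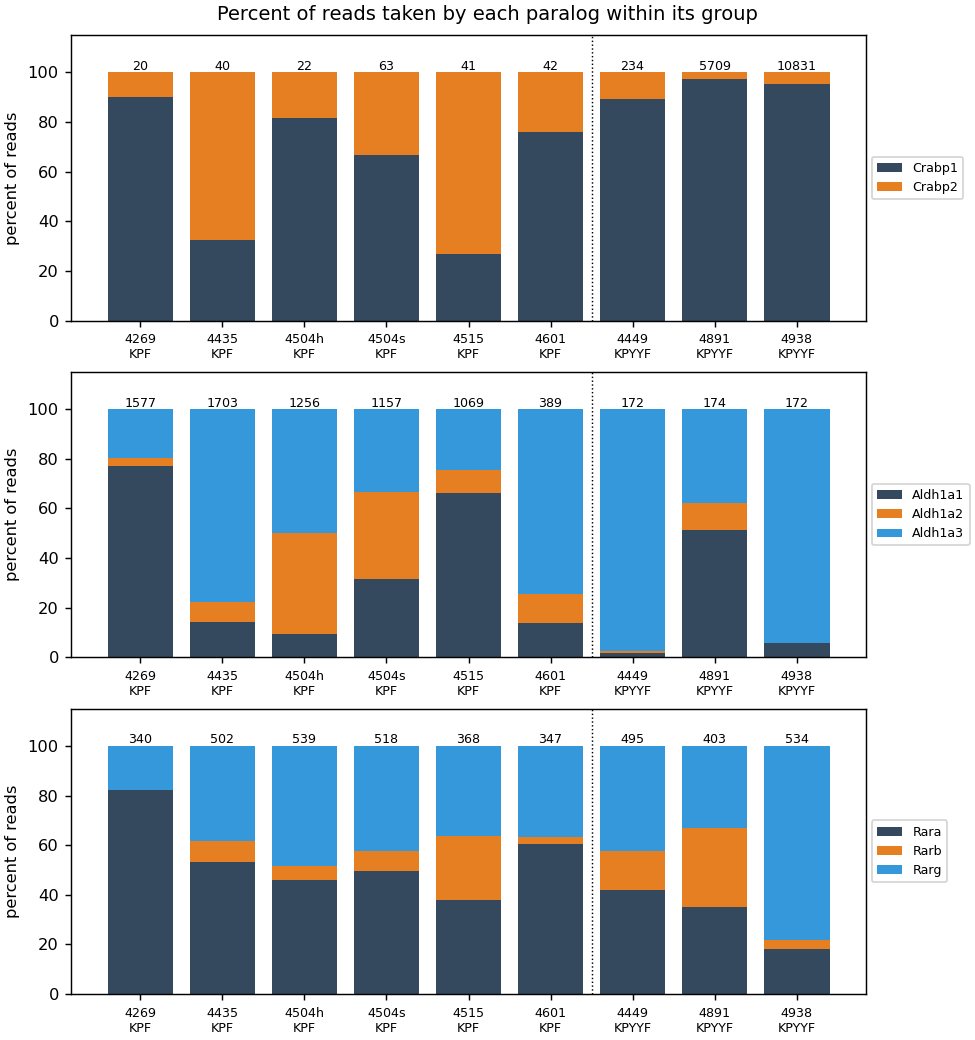
Percent of reads that each gene takes within its family in each library, with the number of reads of the family above each bar, KPF libraries left and KPYYF libraries right of the dotted line. Crabp1 takes at least 89.3% in the KPYYF libraries, and the share of Aldh1a3 differs between 4891 (37.9%) and the other KPYYF libraries (94.2 and 97.7%).

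The wider pathway was read from 6 lists with 55 genes, of which 44 were tested. In edgeR's test, 2 of the 44, Rdh10 and Rarres2, had an adjusted p under 0.05, both as lower in KPYYF cells. By the rule of the methods 13 were lower and 1, Cyp26b1, was higher, beside 9.20% and 4.20% of all genes tested. The count of lower genes was 8 without 4504s or without 4891 and 7 without 4449, without 4938 or with limma-voom. The median log2 fold change was -0.25 over the 44 genes.

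Rdh10, the retinol dehydrogenase that makes retinaldehyde in the embryo, had 200 CPM in 4269, 240 in 4435, 364 in 4504h, 172 in 4504s, 332 in 4515 and 158 in 4601, against 73.4 in 4449, 59.4 in 4891 and 85.5 in 4938. The groups did not overlap, and the fall was 3.36-fold (log2 fold change -1.75, SE 0.34, adjusted p = 0.0351 by edgeR). Its adjusted p was over 0.05 without 4435, 4504s, 4515 or any KPYYF library (at most 0.118) and ranged from 8.85e-05 to 0.118 over the 19 alternatives, with an unadjusted p of at most 0.00194. It was the only one of 11 tested genes of retinol and retinaldehyde interconversion to pass the rule of the methods. The reductase gene Dhrs4 (log2 fold change -0.93, unadjusted p = 0.0944) and the alcohol dehydrogenase gene Adh1 (-1.89, unadjusted p = 0.218) came next, and the list's median was -0.05. Rdh7 had no count in any library.

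Of 8 tested genes of retinol transport and storage, 4 passed the rule as lower and none as higher, with a median log2 fold change of -2.11 (-1.91 with Bco1 at its bound). The count was 2 without 4891 and 0 with limma-voom. Ttr, a carrier of the retinol binding protein in blood, ranged over 3.37 to 258 CPM in KPF libraries and over 0.219 to 1.64 CPM in KPYYF ones (log2 fold change -6.15, SE 1.62, adjusted p = 0.112). Rbp4, the retinol binding protein of blood, had 14.7 to 301 CPM and 0.237 to 10.2 CPM (log2 fold change -3.88, SE 1.25, adjusted p = 0.166). The cellular retinol binding protein gene Rbp2 had 5.83 to 71.5 CPM and 0 to 4.49 CPM (log2 fold change -3.36, unadjusted p = 0.0228). In all 3 of these genes the groups did not overlap and library 4269 was highest. Bco1, which cleaves beta-carotene, had no count in KPYYF libraries and 0 to 114 counts in KPF libraries (unadjusted p = 0.0258 by edgeR). Its KPF mean was 7.75-fold above a floor of 3 counts per KPYYF library, a bound that leaves out the spread among KPF libraries. The interval that edgeR gave for the Bco1 log2 fold change, which includes that spread, ran from -14.04 to -1.10. Of the 152 Bco1 counts, 114 were in 4269. Without 4269 the bound was 2.73-fold, and the 38 counts left were under the filter for testing.

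The degrading enzymes moved apart. Cyp26b1 had 17.8 CPM in 4269, 22.0 in 4435, 25.3 in 4504h, 71.3 in 4504s, 10.7 in 4515 and 31.2 in 4601, against 12.8 in 4449, 296 in 4891 and 197 in 4938. As for Crabp1 and Crabp2, 4449 was the lowest of the KPYYF libraries, here within the KPF range, while 4891 and 4938 lay above all KPF libraries. The log2 fold change was 2.50 (SE 0.76, unadjusted p = 0.00736, adjusted p = 0.141). It was 1.82 (unadjusted p = 0.0508) without 4891, and 3.05 (adjusted p = 0.0220) without 4449. Cyp26a1 had 1.13 to 14.7 CPM in KPF libraries and 0, 0.765 and 0 CPM in KPYYF libraries 4449, 4891 and 4938 (log2 fold change -4.34, SE 1.79, unadjusted p = 0.0300). Its unadjusted p was under 0.05 in 12 of the 19 alternatives. Cyp26c1 had 2 counts in all and was not tested.

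Of 16 tested genes known to respond to retinoic acid, 8 passed the rule as lower and 1, Cyp26b1, as higher, with a median log2 fold change of -1.14. This list holds none of the 9 genes, of which 5 had a positive and 4 a negative log2 fold change. Among them, Crabp2 had 3.79 and Rarb, which retinoic acid induces, had 1.06. Rarres2, which encodes the secreted protein chemerin, had 9 to 469 counts in KPF libraries and 1, 0 and 0 counts in KPYYF libraries, a ratio of KPF to KPYYF levels of 464 with a counting interval of 83.0 to 18338. Its adjusted p was 0.0351 by edgeR and was over 0.05 without 4435, 4504h, 4504s, 4515 or any KPYYF library (at most 0.121), and 0.160 without both libraries of mouse 4504. The homeobox genes Hoxa4, Hoxa5, Hoxb4 and Hoxb5 were highest in 4504h, 4504s and 4435 and passed the rule as lower, with unadjusted p values from 0.0196 (Hoxa5, log2 fold change -3.78) to 0.0479 (Hoxb5, 140 counts in KPF and 1 in KPYYF libraries, a ratio of 68.6 with a counting interval of 12.1 to 2727). Hoxb4 had a log2 fold change of -4.51 on 205 and 4 counts. Hoxa4 had no count in KPYYF libraries, nor in KPF libraries 4269, 4515 and 4601. Its KPF mean was 8.60-fold above a floor of 3 counts per KPYYF library, a bound that leaves out the spread among KPF libraries. This bound was 6.51-fold without 4504h, 4.72-fold without 4504s and 1.14-fold without both. The interval that edgeR gave for the Hoxa4 log2 fold change, which includes that spread, ran from -14.75 to -0.69. Without 4504h or 4504s, Hoxa4 had 98 or 78 counts and was under the filter for testing. Tgm2, the tissue transglutaminase gene, ranged over 184 to 820 CPM in KPF and over 58.0 to 281 CPM in KPYYF cells (log2 fold change -1.43, unadjusted p = 0.0403 by edgeR). Its unadjusted p was under 0.05 in 12 of the 19 alternatives and in 4 of the 9 fits that left out 1 library. The count of 8 was 3 in 4 of the fits that left out 1 library, those without 4504s and without each KPYYF library, and 5 without 4504h. With 4504h and 4504s summed as 1 library it was 5, as Hoxa4, Hoxb4 and Hoxb5 no longer passed. Leaving out both libraries of mouse 4504 left 3, Nrip1, Rarres2 and Tgm2, with none of the 4 Hox genes.

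Of 10 cofactor genes, Nrip1, a corepressor gene that retinoic acid induces, passed the rule as lower (90.4 to 331 CPM in KPF, 46.9 to 113 CPM in KPYYF, log2 fold change -1.41, unadjusted p = 0.0109), but not without 4891 or without 4938. Med1, a subunit of the Mediator coactivator, was 1.55-fold higher (log2 fold change 0.63, unadjusted p = 0.0425 by edgeR). Its unadjusted p was under 0.05 in 8 of the 19 alternatives and in 4 of the 9 fits that left out 1 library. The lowest log2 fold change of Med1 over the alternatives was 0.19. The corepressor gene Ncor1 had 0.38 (unadjusted p = 0.176), and the median of the 10 was -0.14. None of the 3 tested genes of other receptors and binding proteins passed an unadjusted p of 0.05. Rxrb had a log2 fold change of 0.53 (unadjusted p = 0.211), the fatty acid binding protein gene Fabp5, which can carry retinoic acid to Ppard, 0.23 (unadjusted p = 0.666), and Ppard 0.16 (unadjusted p = 0.751).

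**Figure D4:**
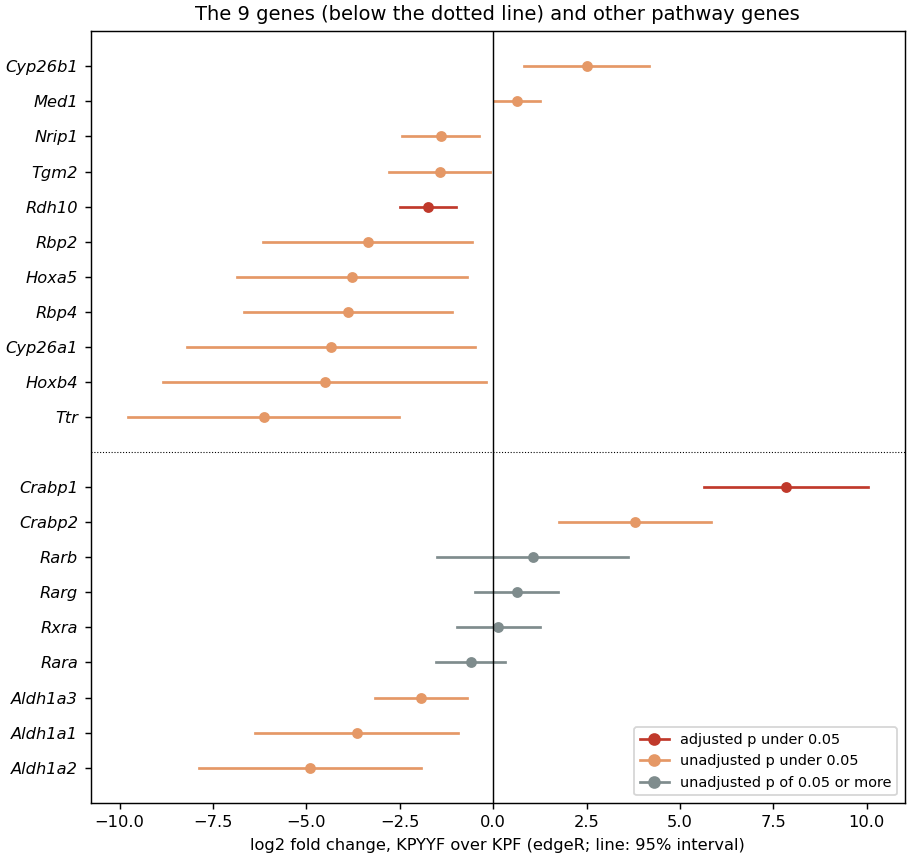
Log2 fold change between KPYYF and KPF cells (edgeR, points) with its 95% interval (lines) for the 9 genes below the dotted line and above it for 11 pathway genes with an unadjusted p under 0.05, those with at most 1 count over the KPYYF libraries left out. Crabp1 (7.83) and Rdh10 (-1.75) are drawn in red for an adjusted p under 0.05, and the intervals of the 4 receptor genes span 0.

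**Figure D5:**
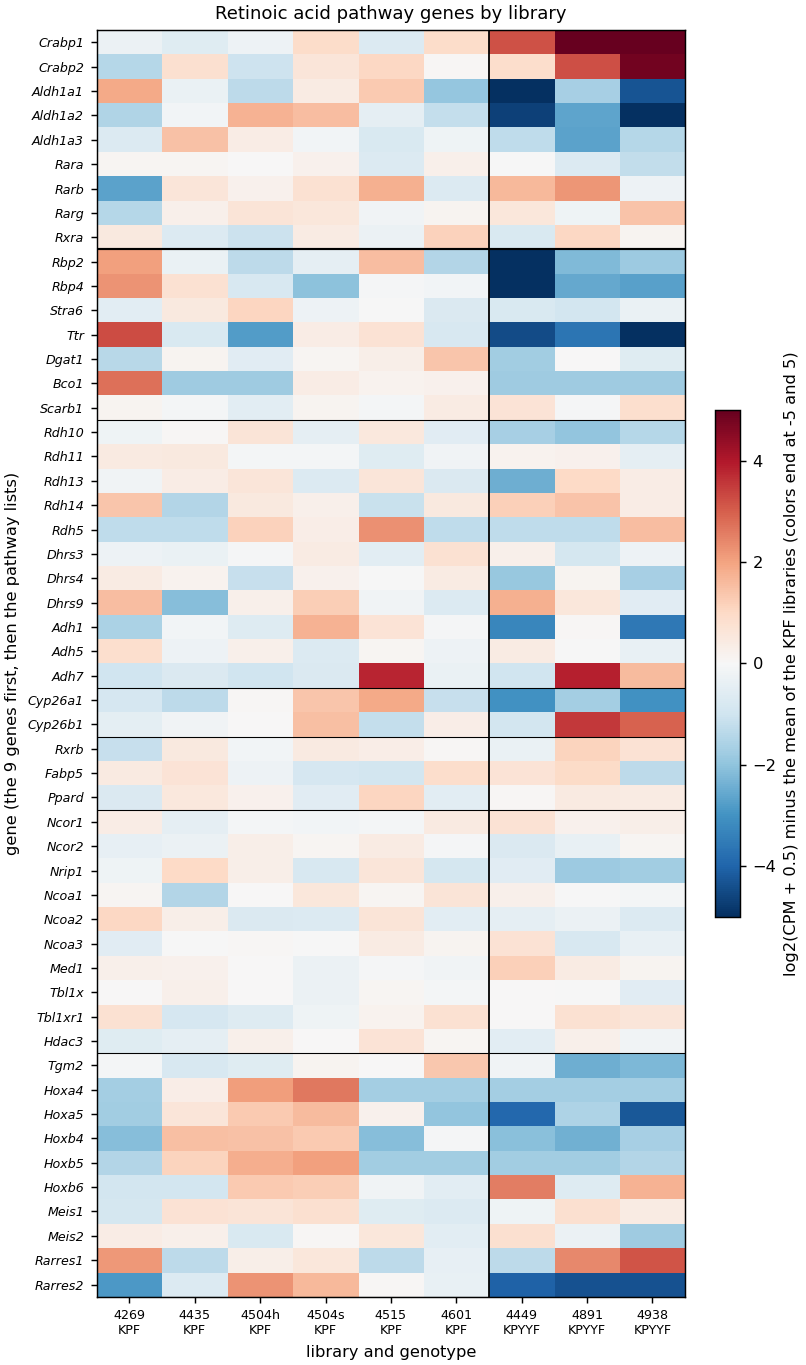
Log2(CPM + 0.5) of the 9 genes and of 43 of the 44 tested pathway genes in each library, minus the mean of the KPF libraries, with red for higher and blue for lower; black lines separate the 9 genes, transport and storage, interconversion, degradation, other receptors and binding proteins, cofactors, and responding genes, each gene drawn once. Crabp1, Crabp2 and Cyp26b1 are red in 4891 and 4938, and the Aldh1a genes, Rdh10 and Rarres2 are blue in the KPYYF libraries.

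For the 5 genes with an unadjusted p under 0.05, the genes of most similar pattern were taken by Pearson's r of log2 CPM over the 9 libraries, among 8874 genes with a mean of at least 10 CPM (8875 for Crabp2). Libraries share depth and cell content across all genes, so r is a description here. For Crabp1 they were Ptgfr (r = 0.945), Prelid3b (0.940) and Pde3b (0.939). Ptgfr had at most 3.64 CPM in KPF libraries and 4.87, 57.6 and 66.3 CPM in 4449, 4891 and 4938. For Crabp2 they were Dctpp1 (0.960), Rps10 (0.945) and Timm50 (0.945). For Aldh1a1 they were Dguok (0.978), Tox (0.969) and Rab11fip5 (0.968), and Tox ran from 5.11 to 46.1 CPM in KPF and from 0 to 1.75 CPM in KPYYF libraries. For Aldh1a2 they were Fndc1 (0.966), Cox19 (0.963) and Procr (0.952), and Fndc1 was highest in 4504h (59.7 CPM) and 4504s (40.3 CPM), as Aldh1a2 was. For Aldh1a3 they were Golgb1 (0.929), Acsbg1 (0.923) and Unc13d (0.905), and Acsbg1 was highest in 4435 (153 CPM), as Aldh1a3 was.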

How the data were processed

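RNA of FACS-sorted GFP+ or Tm+ PDAC cells was made into 3' end libraries (Lexogen QuantSeq 3' Fwd). The authors deposited 1 file of raw counts per library, without normalization. The submitters' processing notes name STAR, HTSeq and mm10; versions, annotation and strand setting are not given in the sources used here. The methods text describes BeadChip hybridization, whereas the files hold whole-number counts. Reads on genes were 38.5 to 42.0% of each KPF file and 37.3 to 38.2% of each KPYYF file. Reads without a unique alignment were 43.8 to 48.5% in KPF and 49.2 to 53.4% in KPYYF files. Neither measure overlapped between groups, so these measures and group cannot be told apart. The 5 summary lines were left out.

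Of 47643 Ensembl genes, 47224 matched a symbol in GENCODE M21 (GRCm38, the assembly of mm10). Genes with at least 100 counts in all (14105, the filter of the methods) were TMM-scaled and tested, KPYYF against KPF without covariates, with edgeR 4.0.16 (quasi-likelihood, robust) in R 4.3.3. All p-values are two-sided; adjusted ones use the Benjamini-Hochberg method over the 14105 genes. The rule of the methods is an unadjusted p under 0.05 and a change over 2-fold. The study applied it to DESeq2 results, and it was applied here to edgeR's unless another test is named. The common biological coefficient of variation was 0.825. Each library has its own mouse number in the labels, except 4504h and 4504s, which share one and count as 2 samples in the p-values over 9 libraries. Shares were compared by exact permutation. Log2 CPM used a prior count of 2. Alternatives were DESeq2 1.42.0, limma-voom (limma 3.58.1) with quality weights, RLE and upper quartile scaling, other filters, libraries with at least 1000 Xist counts, and libraries summed or left out. The scripts were tested on simulated data. Named genes are the 9 genes, the 3 genes of smallest p of each list, genes with an unadjusted p under 0.05 or with no count, and the 3 genes most correlated with each moved gene; cell type markers, Aldh1a7, Top2b, Xist and Cyp26c1 were named beside them. Some genes of the lists and an allele shared by both groups are not reported here. The 9 genes and the lists were chosen with earlier results of these data known. Intervals and floors cover counting error only where they are called counting or Wilson intervals. Promoter sequences are RefSeq's (GRCm38.p6).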

Additional observations from a re-analysis of the deposited data

Results flagged for a closer look

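Over 39 groups of KPF values tested for a library apart from the rest by Dixon's ratio of the gap to the range, 8 were flagged. Chance flags about 1 in 20 where values are normally distributed and independent, which CPM of genes in the same libraries need not be. KPYYF groups, with 3 libraries, were not tested. Among the 9 genes, Aldh1a3 was high in 4435 (135 CPM, a gap of 0.670 of the group's range) and Rara was low in 4515 (15.5 CPM, 0.652). In the same library 4515, Rarb took 25.5% of the Rar counts (0.672), against at most 8.37% in the other KPF libraries. Library 4269 was high in 3 genes of retinol transport, Rbp4 (301 CPM, 0.676), Ttr (258 CPM, 0.840) and Bco1 (11.1 CPM, 0.846). Cyp26b1 was high in 4504s (71.3 CPM, 0.662) and Tgm2 in 4601 (820 CPM, 0.735).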

How the results depend on the processing

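No paired analysis was possible because the labels give no replicate numbers that the groups share. The 9 genes kept the direction of their log2 fold change in all 19 alternatives except Rxra, which was -0.03 without 4504h, -0.45 without 4891 and -0.015 without both libraries of mouse 4504, and ranged from -0.45 to 0.47 with 1 library left out; Fabp5 also turned, to -0.16 without 4891 (0.66 at most with 1 library left out) and -0.028 without both libraries of mouse 4504 (the cause was not tested). At an adjusted p under 0.05, the genes called higher were 2 with DESeq2, 2 without a filter on low counts, 0 with limma-voom and 0 among the libraries with at least 1000 Xist counts, and 1 to 2 with 1 library left out; those called lower were 3 with DESeq2. By the rule of the methods, 1 to 2 were higher with 1 library left out. Genes without overlap upward were 1 to 2 with 1 library left out. Pathway genes higher by that rule were 2 without a filter and 2 among the libraries with at least 1000 Xist counts, and 0 to 2 with 1 library left out; those lower were 7 with limma-voom, 8 without both libraries of mouse 4504, 7 without 4504s, 4601 and 4449, and 7 to 12 with 1 library left out. Yap1 had a log2 fold change of -4.56 with limma-voom (adjusted p = 0.0771) and from -5.78 to -4.31 with 1 library left out, with an adjusted p of 0.0553 without 4891. The last alternatives, without both libraries of mouse 4504 and without 4504s, 4601 and 4449, were chosen after seeing the data. Over all genes, DESeq2 called 269 higher and 928 lower at an adjusted p under 0.05, against 43 and 112 with edgeR, and 6 and 25 without 4435. A group of 3 libraries and 2 to 42 counts of the Crabp genes per KPF library limit the precision of the fold changes given.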
